A study of Mus musculus with 8 samples.

Results

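The AP-1 and immediate early genes examined here were Fos, Fosb, Fosl1, Fosl2, Jun, Junb, Jund, Atf3, Egr1 and Nr4a1. They were chosen by gene symbol, 10 of the 18540 genes in the count table, and all 10 were among the 15147 genes that passed the filter on low counts and were tested. RNA was sequenced from wound skin of 4 control samples, numbered 1, 2, 3 and 5, which received PBS, and of 4 Z1C2Z samples, numbered 1, 2, 4 and 5, from mice treated for 15 days. Values of single samples are given in this order, control samples first. Z1C2Z is the ZnO2/CeO2@ZIF-8 nanocomposite of the study with the higher share of CeO2, built to release oxygen and remove reactive oxygen species. The study wounded db/db diabetic mice and C57BL mice, which differed in age and received the same injected dose around the wound. Its methods do not say which strain the sequenced samples came from, and sex is not given in the sources used here. No gene was deleted or added in either group, so no targeted gene could serve as a check of the labels.

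AP-1 is a transcription factor made of a pair of leucine zipper proteins, one usually from the FOS family (FOS, FOSB, FOSL1, FOSL2) and one from the JUN family (JUN, JUNB, JUND), with ATF3 as a further partner. Many of these genes, together with Egr1 and Nr4a1, are immediate early genes, which a growth factor, cytokine or stress signal switches on within minutes from factors already present in the cell. In wounded skin AP-1 is known for its part in keratinocyte migration and for driving proteases and cytokines.

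To show the regulatory sequence next to which these genes start, the 250 bases before the annotated start are given for Fos, Fosb and Nr4a1, the founding FOS member and the 2 members that passed the test below, and for Jun, whose level overlapped between the groups. The sequences are from RefSeq (GRCm38.p6), each 5′ to 3′ on the strand of its gene. Capitals mark the letters TGACG, the core of the cAMP response element to which CREB and ATF factors bind, on either strand (CGTCA when it lies on the other strand). The Fos sequence is chr12:85473640-85473889 on the plus strand, Fosb chr7:19310046-19310295 on the minus strand, Nr4a1 chr15:101266596-101266845 on the plus strand and Jun chr4:95052223-95052472 on the minus strand.
Fos: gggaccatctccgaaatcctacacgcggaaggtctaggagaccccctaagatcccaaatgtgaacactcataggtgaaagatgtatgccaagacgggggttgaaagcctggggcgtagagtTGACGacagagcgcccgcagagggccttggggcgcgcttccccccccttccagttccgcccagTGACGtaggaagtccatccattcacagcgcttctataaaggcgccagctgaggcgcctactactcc
Fosb: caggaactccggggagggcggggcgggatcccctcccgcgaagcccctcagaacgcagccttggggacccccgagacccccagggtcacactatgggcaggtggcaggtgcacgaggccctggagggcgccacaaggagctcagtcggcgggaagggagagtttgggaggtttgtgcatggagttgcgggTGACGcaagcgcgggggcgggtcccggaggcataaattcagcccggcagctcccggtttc
Nr4a1: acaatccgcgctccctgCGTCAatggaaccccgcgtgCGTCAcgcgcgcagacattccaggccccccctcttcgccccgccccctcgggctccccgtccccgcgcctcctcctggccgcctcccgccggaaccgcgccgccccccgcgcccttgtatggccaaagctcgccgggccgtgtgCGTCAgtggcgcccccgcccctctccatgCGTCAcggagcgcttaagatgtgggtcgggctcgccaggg
Jun: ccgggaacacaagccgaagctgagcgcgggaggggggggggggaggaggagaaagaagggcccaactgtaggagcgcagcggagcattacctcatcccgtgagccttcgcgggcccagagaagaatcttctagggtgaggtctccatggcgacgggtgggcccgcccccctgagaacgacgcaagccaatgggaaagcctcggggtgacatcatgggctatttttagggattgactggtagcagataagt

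A promoter window of 250 bases before to 50 after the start was at hand for 8 members, and Fosl1 and Egr1 had none. TGACG was found in 5 of these 8 windows (Fos, Fosb, Junb, Atf3 and Nr4a1), against 20.8% of all 32851 windows of that length. It began 129 and 66 bases before the start of Fos, 60 bases before that of Fosb, and 233, 213, 69 and 40 bases before that of Nr4a1. The full palindrome TGACGTCA, which contains TGACG, was in 0 of the 8 windows and in 1.79% of all windows. The AP-1 site TGANTCA, read on both strands, was in 0 of 8 against 7.81%, and the CArG box, the core of the serum response element, in 0 of 8 against 1.63%. At shares of 1.63% to 7.81%, 0 of 8 is a likely count for any 8 windows, and sites farther from the start were not searched. Only exact matches were counted. The letters tgacatca in the Jun sequence above, which differ from TGACGTCA in a single letter, were therefore not counted. These are matches of letters in a short window and say nothing of binding in the wound.

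Between 28856790 and 38974888 reads were counted on genes per sample. Levels are given as CPM, counts scaled by the size of the library with TMM factors. The groups were compared by the quasi-likelihood test of edgeR, with p-values adjusted by the Benjamini-Hochberg method over all genes tested. A gene was called at an adjusted p under 0.05. Of all genes tested, 3.85% were called lower and 4.28% called higher in the Z1C2Z group, and the median log2 fold change was 0.01. Nothing in the labels says that the samples came from separate animals, and the study made a pair of wounds per mouse, so p-values measure only the spread between these samples. In bulk skin, fewer cells of a type and less RNA per cell cannot be told apart.

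Compared with the control group, Fosb and Nr4a1 fell in the Z1C2Z group, 7.14-fold and 4.24-fold by the fitted values, and the other 8 members did not pass the threshold. The fitted log2 fold change was under 0 for 10 of 10 members, with a median of -0.69, while 48.9% of all genes tested were under 0. Both had a log2 fold change under -1, and 1.25% of all genes tested were called with a log2 fold change under -1. The other genes of the FOS family, Fosl1, Fos and Fosl2, had adjusted p-values of 0.0508, 0.0681 and 0.0915 in edgeR and passed with DESeq2, the other test that was run. DESeq2 thus called 5 of 10 members lower, against 9.31% of the genes to which it gave an adjusted p. At an unadjusted p under 0.05, edgeR had 7 of 10 members lower, where 15.2% of all genes tested were lower and 12.8% higher.

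**Figure D1:**
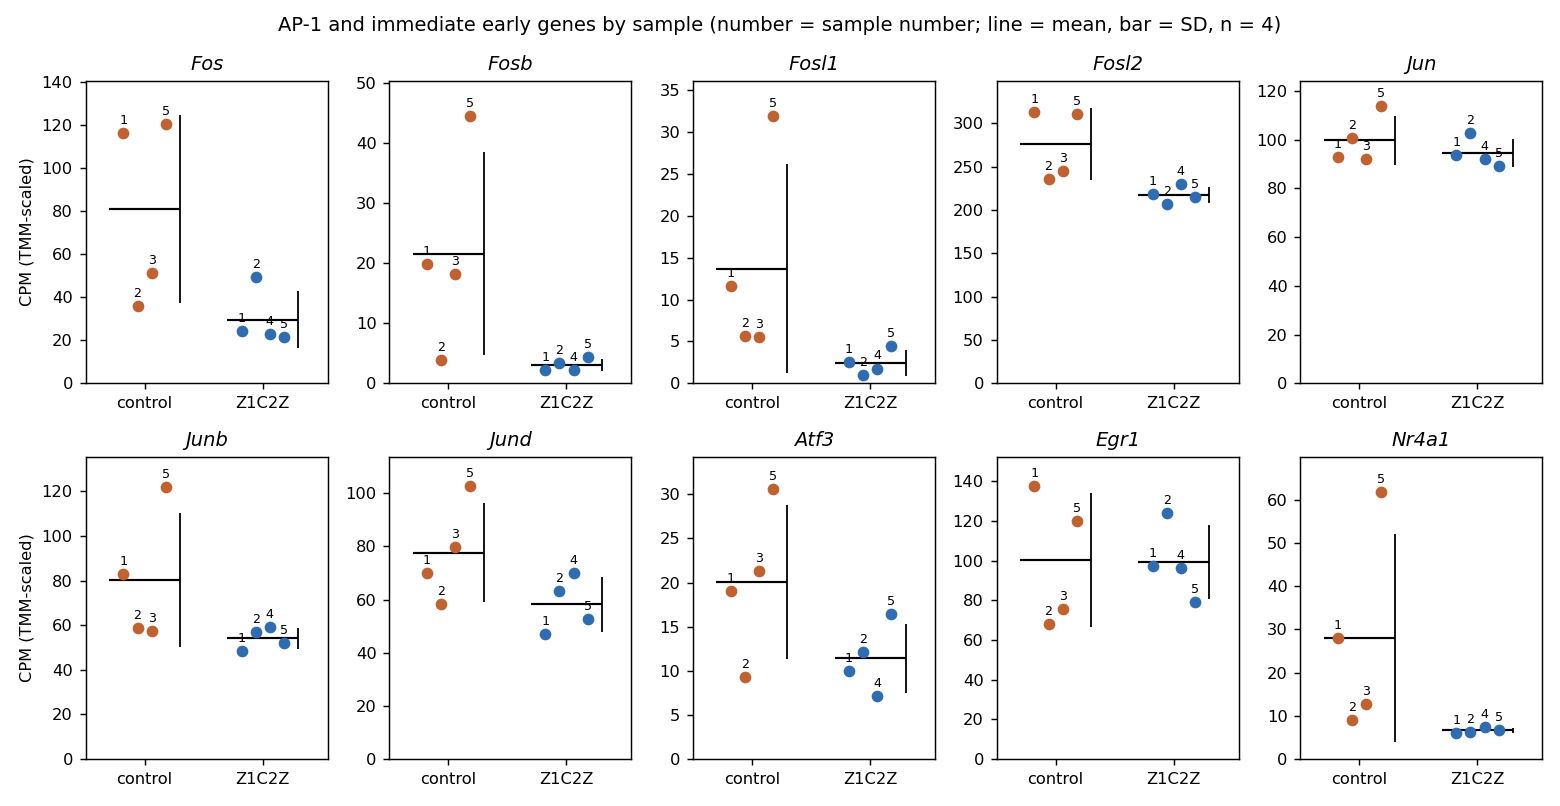
Level of each member in CPM (y axis, from 0) in every control and Z1C2Z sample (points, numbered by sample), with the group mean (line) and SD (bar, n = 4). Control-5 is the highest of the 8 samples in 8 of the 10 panels, and the 4 Z1C2Z points of Nr4a1 sit between 5.95 and 7.48 CPM, below all 4 control points.

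Among the FOS family, Fosb showed the largest fitted fall of the 10 members. FOSB is an AP-1 subunit that accumulates with repeated stimulation in its shorter splice form. Its level was 19.8, 3.83, 18.2 and 44.5 CPM in the control samples and 2.17, 3.34, 2.18 and 4.38 CPM in the treated samples. Control-1, control-3 and control-5 were above every treated sample, whereas control-2 lay among the treated samples, below Z1C2Z-5. The means were 21.6 ± 16.9 CPM in the control group and 3.02 ± 1.06 CPM in the Z1C2Z group (SD, n = 4), and the fitted log2 fold change was -2.84 (SE 0.62, edgeR adjusted p = 0.0339). Behind these values were 138 to 1580 reads in a control sample and 77 to 158 reads in a treated one. The control samples themselves spanned an 11.6-fold range.

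Fosl1 encodes FRA1, a FOS protein that lacks the transactivation domain and is prominent in migrating keratinocytes. It was measured at 11.6, 5.66, 5.54 and 31.9 CPM in the control samples and at 2.51, 0.933, 1.76 and 4.49 CPM in the treated samples. The groups did not overlap, although the gap between control-3 and Z1C2Z-5 was narrow beside the distance from control-3 to control-5. The group means were 13.7 ± 12.5 and 2.42 ± 1.52 CPM (SD, n = 4). The log2 fold change of -2.50 (SE 0.66) had an edgeR adjusted p of 0.0508, just past the threshold, and a DESeq2 adjusted p of 0.00797. Without a filter on low counts the edgeR adjusted p was 0.0493, with the log2 fold change still at -2.50.

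Fos, the founding member, whose transcript turns over within minutes, had 116, 35.7, 51.1 and 120.1 CPM in the control samples and 24.3, 49.4, 22.9 and 21.3 CPM in the treated samples. The control samples formed a high pair (control-1 and control-5) and a low pair (control-2 and control-3), and 3 of the 4 treated samples were under every control sample. Z1C2Z-2 stood apart from the other treated samples and reached the low control pair. With means of 80.8 ± 43.6 and 29.5 ± 13.4 CPM (SD, n = 4), the log2 fold change was -1.45 (SE 0.43), with an edgeR adjusted p of 0.0681 and a DESeq2 adjusted p of 0.0286.

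Fosl2 encodes FRA2, a slower and longer lived FOS protein of differentiating skin cells. It had the smallest fitted difference of the 4 FOS genes and the tightest replicates. Control samples had 313, 235, 245 and 311 CPM and treated samples 219, 207, 229.6 and 215 CPM, so that all 4 treated samples lay below the lowest control sample. The means were 276 ± 41.4 and 218 ± 9.30 CPM (SD, n = 4), and the fitted log2 fold change was -0.34 (SE 0.11). The edgeR adjusted p was 0.0915 and the DESeq2 adjusted p 0.0371.

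In the JUN family, Jun, the partner with which FOS forms its most studied dimer, had 92.8, 101, 91.9 and 114 CPM in the control samples and 93.8, 103, 92.2 and 89.1 CPM in the treated samples. Apart from control-5 and Z1C2Z-5, the samples of the groups were interleaved within about the same range. The log2 fold change was -0.08 (SE 0.10, edgeR adjusted p = 0.620), and the means were 99.7 ± 10.1 and 94.4 ± 5.79 CPM (SD, n = 4).

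Junb, which often restrains JUN in the epidermis, reached 122 CPM in control-5 and 82.7 CPM in control-1. Control-2 and control-3, with 58.8 and 57.5 CPM, lay within the treated samples, which had 48.4, 57.0, 58.9 and 51.8 CPM. The log2 fold change of -0.57 (SE 0.23) had an edgeR adjusted p of 0.140. Jund, the JUN gene with the steadiest expression in most tissues, had 70.0, 58.3, 79.9 and 103 CPM in control samples and 47.2, 63.1, 69.8 and 52.6 CPM in treated samples. These ranges overlapped, and the log2 fold change was -0.42 (SE 0.19, edgeR adjusted p = 0.179). DESeq2 gave adjusted p-values of 0.635, 0.0677 and 0.123 for Jun, Junb and Jund, so no JUN gene passed in either test.

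Atf3, a stress-induced leucine zipper factor that pairs with JUN and can repress cytokine genes, had 19.1, 9.30, 21.3 and 30.6 CPM in the control samples and 9.98, 12.1, 7.16 and 16.5 CPM in the treated samples. Control-2 again lay among the treated samples, and the other 3 control samples were above all of them. The log2 fold change was -0.81 (SE 0.35, edgeR adjusted p = 0.171), with a DESeq2 adjusted p of 0.0784.

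Egr1, a zinc finger factor induced through the same serum response elements as Fos, showed the least difference of all members. Its level was 138, 68.0, 75.8 and 120.2 CPM in the control samples and 97.2, 124, 96.5 and 78.9 CPM in the treated samples. The treated samples lay inside the control range, which split into the same high and low pairs as for Fos. The means of 100.4 ± 33.8 and 99.2 ± 18.7 CPM (SD, n = 4) gave a log2 fold change of -0.02 (SE 0.24, edgeR adjusted p = 0.969). Its sign was not stable: it ranged from -0.16 to 0.17 when 1 sample was left out.

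Nr4a1, an orphan nuclear receptor also known as NUR77 that is induced in macrophages and T cells as well as in skin cells, had 28.0, 9.10, 12.7 and 61.9 CPM in the control samples and 5.95, 6.32, 7.48 and 6.60 CPM in the treated samples. The treated samples were almost alike, with a 1.26-fold range, and all were below the lowest control sample, while the control samples spanned a 6.80-fold range. The means were 27.9 ± 24.1 and 6.59 ± 0.653 CPM (SD, n = 4), and the log2 fold change was -2.08 (SE 0.54, edgeR adjusted p = 0.0475). Its sequence above carried 4 TGACG matches, the most of the 8 windows. In all, the groups did not overlap for 3 of 10 members (Fosl1, Fosl2 and Nr4a1), and 8.82% of all genes tested were lower with no overlap.

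**Figure D2:**
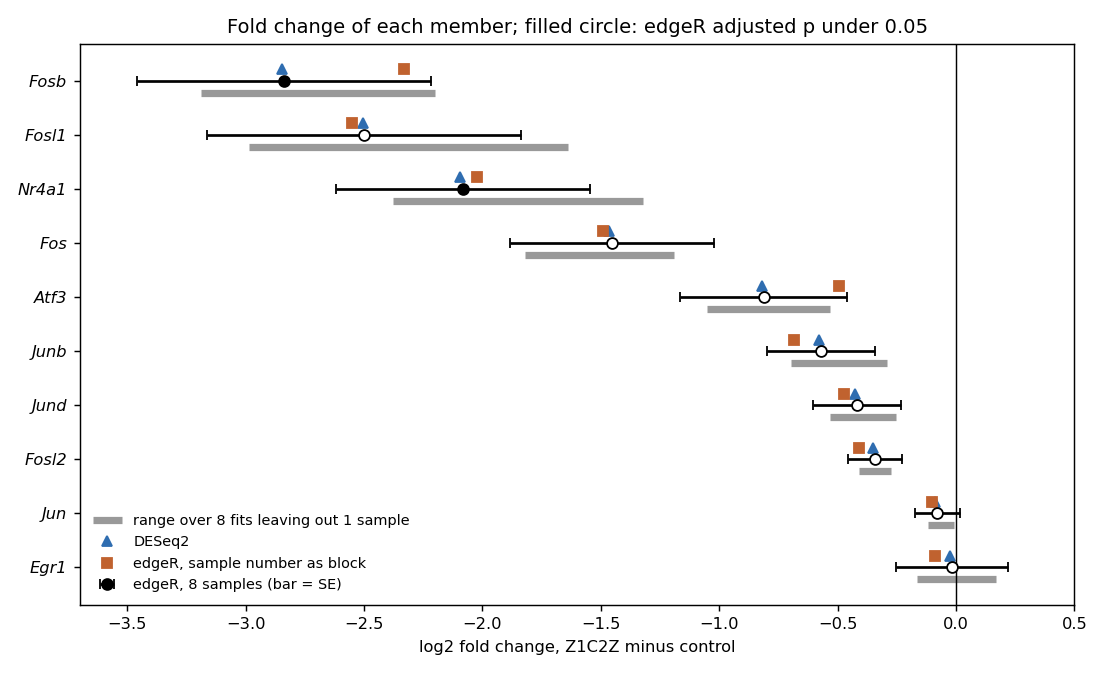
Log2 fold change of each member, Z1C2Z minus control (x axis), from edgeR with 8 samples (circle with SE bar, filled where the adjusted p was under 0.05), from DESeq2 (triangle), with the sample number as a block (square), and the range over 8 fits that each left out 1 sample (grey). Only Fosb and Nr4a1 are filled, and the grey range of Egr1 crosses 0.

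The size of these falls depended in part on control-5, which was the highest of the 8 samples for 8 of 10 members, Fosl2 and Egr1 being highest in control-1. Control-2 was the lowest control sample for 7 of 10. Without control-5 the log2 fold changes of Fosb, Nr4a1 and Fosl1 were -2.20, -1.32 and -1.64, with edgeR adjusted p-values of 0.0858, 0.0933 and 0.125. In that fit 0 members and 0 genes of the whole table were called, with 5 members and 3223 genes at an unadjusted p under 0.05. Fits that lacked Z1C2Z-1, Z1C2Z-2 or Z1C2Z-4 also gave 0 called genes (4208, 3137 and 3100 at an unadjusted p under 0.05), and in these fits Fosb had adjusted p-values of 0.0774, 0.103 and 0.106 and Nr4a1 of 0.100, 0.132 and 0.121. Nr4a1 also missed the threshold without control-1 (0.0598), control-2 (0.0529) and Z1C2Z-5 (0.0668), and was called without control-3 (0.0389). Fosb was called in the 4 fits without control-1, control-2, control-3 or Z1C2Z-5. Fosl1 was called without control-3 (0.0443) and without Z1C2Z-5 (0.0351). The direction of all members but Egr1 was the same in each of the 8 fits.

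Levels of different genes were compared per kilobase of exon (CPM per kb), with exon lengths from GENCODE M21. In the control group the mean was highest for Jund with 46.6 ± 11.3 CPM per kb (SD, n = 4), followed by Junb (34.9 ± 13.1), Fos (34.3 ± 18.6), Jun (31.3 ± 3.16), Fosl2 (28.5 ± 4.28) and Egr1 (22.4 ± 7.55). Each of these overlapped its neighbours in that order over the samples. Atf3 (9.31 ± 4.05), Nr4a1 (7.96 ± 6.87), Fosl1 (6.73 ± 6.13) and Fosb (3.46 ± 2.70) were lower, also with overlap between neighbours. In the Z1C2Z group the order of means was Jund (34.9 ± 6.13), Jun (29.6 ± 1.82), Junb (23.5 ± 2.09), Fosl2 (22.5 ± 0.961), Egr1 (22.1 ± 4.17), Fos (12.5 ± 5.68), Atf3 (5.30 ± 1.82), Nr4a1 (1.88 ± 0.186), Fosl1 (1.19 ± 0.749) and Fosb (0.484 ± 0.170). Here neighbours did not overlap between Jun and Junb, between Fos and Atf3 and between Atf3 and Nr4a1. Fos moved from the third to the sixth place in the order of means.

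Summed per kb, the 4 FOS genes gave 90.6, 42.9, 52.7 and 106 CPM per kb in the control samples and 34.5, 43.4, 34.7 and 34.2 in the treated samples. The groups overlapped only where Z1C2Z-2 exceeded control-2, and the treated mean of 36.7 ± 4.48 stood against a control mean of 73.0 ± 30.1 (SD, n = 4). The 3 JUN genes summed to 107, 92.1, 102 and 150.1 CPM per kb against 78.7, 94.8, 96.4 and 82.0. These ranges overlapped more, since Z1C2Z-2 and Z1C2Z-4 were above control-2. The ratio of the FOS to the JUN sum was 0.466 to 0.847 in the control samples and 0.360 to 0.458 in the treated samples. These ranges did not overlap, but control-2 (0.466) and Z1C2Z-2 (0.458) nearly met, and the ratio was not tested.

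Within the FOS family the make-up of transcripts was also described, as shares of the sum. Fosl2 made up 42.7 ± 11.9% of the FOS sum in the control group and 62.1 ± 8.64% in the Z1C2Z group (SD, n = 4). The share of Fos was 44.8 ± 8.31% and 33.2 ± 10.2%, that of Fosl1 8.19 ± 4.44% and 3.40 ± 2.29%, and that of Fosb 4.30 ± 2.33% and 1.33 ± 0.495%. The ranges of each of these shares overlapped between the groups, and they were not tested. Shares of the same sum are tied to each other, so they are not separate results. In the JUN family, Jund made up 41.3 ± 4.05% and 39.4 ± 3.14% of the sum and Jun 28.4 ± 4.38% and 33.8 ± 3.02%, again with overlap between the groups.

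**Figure D3:**
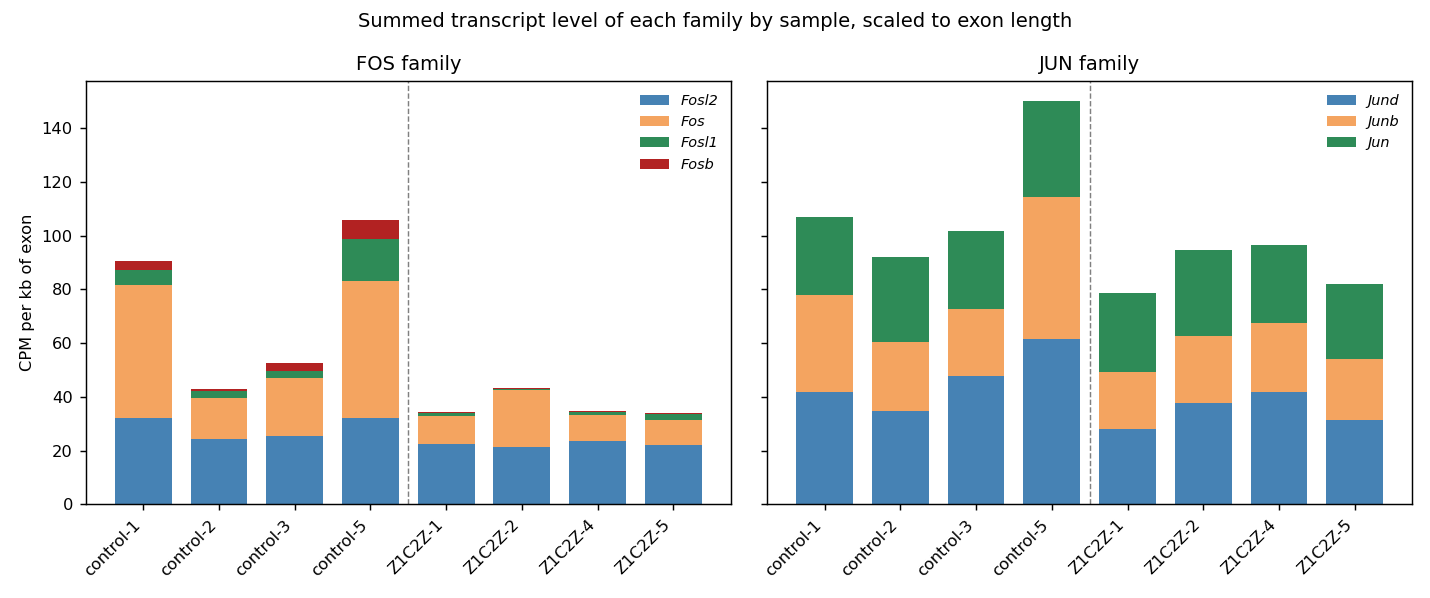
Stacked bars of the FOS family (left) and JUN family (right) in CPM per kb of exon (y axis, from 0) for each sample, with 1 colour per gene. The FOS sum is 90.6 and 106 in control-1 and control-5 and 34.2 to 43.4 in the treated samples, and Fosl2 is the largest segment in all 4 of these.

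The other genes of the pathway were described from lists written for this comparison, and none of the lists was tested as a set. The lists were written with earlier results of these data known. Of all genes tested, 3.85% were called lower and 4.28% called higher. Of 24 further leucine zipper factors that can pair with FOS or JUN or bind related sites, 3 fell (12.5%), 0 were called higher and 21 were not called, and the median log2 fold change was -0.17. Crem, a cAMP-responsive factor with an inducible repressor form, had 68.3, 25.9, 34.5 and 64.0 CPM in the control samples and 16.4 to 18.9 CPM in the treated samples, a log2 fold change of -1.45 (SE 0.29, edgeR adjusted p = 0.0303). Its treated samples were again nearly alike, and its high controls were control-1 and control-5, as for Fos. Cebpd, an acute phase regulator, fell by 1.32 on the log2 scale (SE 0.29, edgeR adjusted p = 0.0348). Jdp2, a repressor of AP-1 that pairs with JUN, fell by 0.62 (SE 0.13, edgeR adjusted p = 0.0332), so a factor that opposes AP-1 was among the called genes. Mafg, the next by p, was at -0.32 on this scale (edgeR adjusted p = 0.0786).

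Of 42 other immediate early genes tested, 10 fell (23.8%) and 1 rose, with 31 not called and a median log2 fold change of -0.39. The groups did not overlap for 12 of them (28.6%) in the lower direction, against 8.82% of all genes tested. Of the 16256 genes to which DESeq2 gave an adjusted p, it called 1513 (9.31%) lower and 1243 higher. In this list it called 18 lower and 2 higher. The paralogs of Nr4a1 were among those that fell. Nr4a2 had 21.0, 14.3, 17.4 and 33.2 CPM in the control samples and 5.87, 3.63, 7.33 and 7.96 CPM in the treated samples, a log2 fold change of -1.79 (SE 0.31, edgeR adjusted p = 0.0299). Nr4a3 had 33.1, 14.5, 28.4 and 67.9 CPM against 10.5, 8.21, 10.8 and 11.1 CPM, a log2 fold change of -1.82 (SE 0.40, edgeR adjusted p = 0.0337). For both, every treated sample lay below every control sample, so all 3 genes of the NR4A family were called lower.

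Among the others, Dusp1, a phosphatase that switches off the stress kinases, had 91.9 to 245 CPM in the control samples and 39.8 to 60.8 CPM in the treated samples (log2 fold change -1.68, SE 0.29, edgeR adjusted p = 0.0299). Ccn1 and Ccn2, matricellular proteins induced by serum and by stretch, fell by 1.68 (SE 0.31, edgeR adjusted p = 0.0303) and 0.89 (SE 0.18, edgeR adjusted p = 0.0309) on the log2 scale. Nfkbiz, a nuclear cofactor of NF-κB, fell by 1.05 (edgeR adjusted p = 0.0348), and Zfp36l2, which speeds decay of AU-rich transcripts, by 0.40 (edgeR adjusted p = 0.0348). The remaining genes that fell were Klf6, Klf9 and Per1, with log2 fold changes between -0.61 and -0.43.

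In the EGR family 1 gene rose and 0 fell. Egr3 was the gene that rose, with 112, 85.1, 86.3 and 86.8 CPM in the control samples and 130.1, 125, 142 and 128 CPM in the treated samples. All treated samples were above control-1, the highest control sample, and the log2 fold change was 0.50 (SE 0.11, edgeR adjusted p = 0.0337). Egr2, singled out here after its values were seen, had 39.9 to 57.9 CPM in the control samples and 56.6 to 102 CPM in the treated samples (log2 fold change 0.62, SE 0.20, edgeR adjusted p = 0.0865). Egr1 itself did not pass in either direction, as given above.

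**Figure D4:**
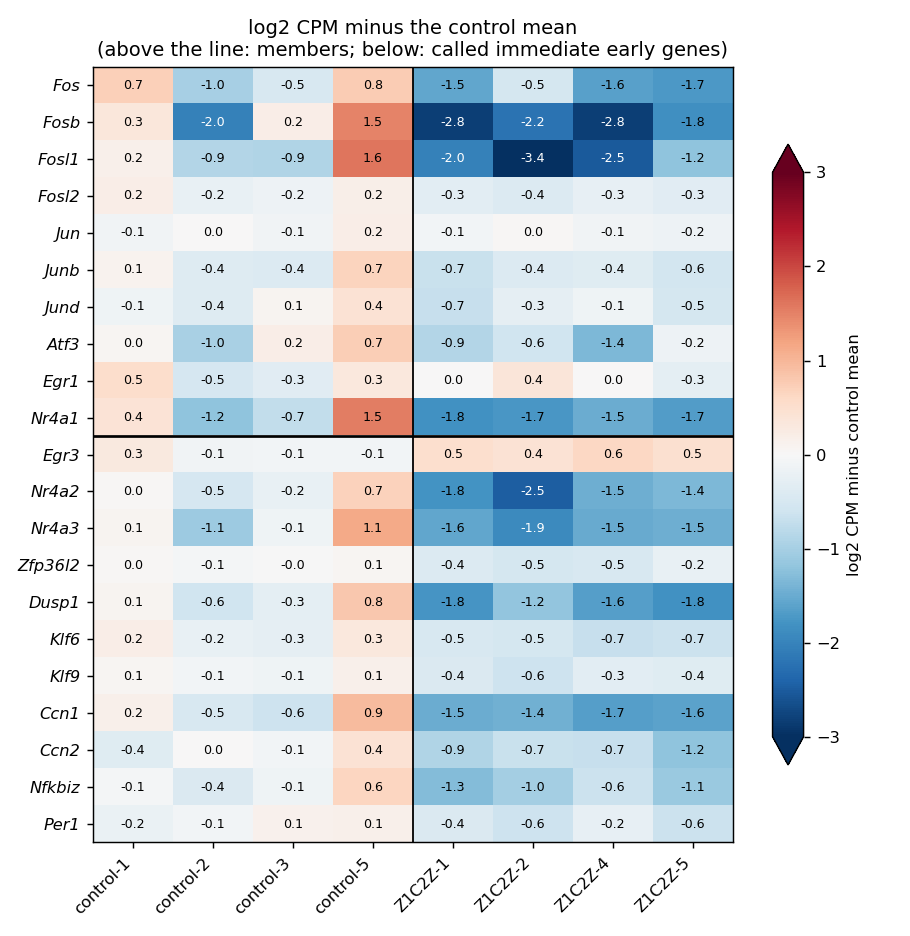
Log2 CPM minus the control mean (colour and printed value) for each sample (columns), with the 10 members above the line and the 11 called genes among the other immediate early genes below it. The treated columns are blue for the NR4A genes, Dusp1 and Ccn1, red for Egr3 and close to white for Jun, and within the control columns control-2 and control-5 lie at opposite ends for Fosb, Fos and Nr4a1.

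Upstream of these genes lie the MAP kinases and the serum response factor with its partners, which act mainly through phosphorylation, so that transcript levels do not measure their activity. Of 27 such genes tested, edgeR called 0 in either direction, with 5 lower and 2 higher at an unadjusted p under 0.05. The 5 of 27 lower at that p are near the 15.2% of all genes tested. DESeq2 called 4 lower and 1 higher, against 9.31% called lower of the genes to which it gave an adjusted p. The groups did not overlap in the lower direction for 5 of 27 (18.5%), against 8.82% of all genes tested. In the higher direction they did not overlap for 1. The smallest p-values belonged to Map2k1, the kinase MEK1 above ERK, at -0.46 on the log2 scale (edgeR adjusted p = 0.0566), and Elk3, a partner of serum response factor, with -0.68 (edgeR adjusted p = 0.0621). Nab1, a corepressor of EGR proteins, had -0.28 (edgeR adjusted p = 0.0682), and Mapk8, the kinase JNK1 that phosphorylates JUN, -0.27 (edgeR adjusted p = 0.0792).

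Of 33 tested genes listed as AP-1 targets in skin and wounds, 10 fell (30.3%, against 3.85% of all genes tested), 1 rose and 22 were not called. The median log2 fold change was -1.41. The list was written with earlier results of these data known, so these shares are a description and no independent support. The groups did not overlap in the lower direction for 12 (36.4%), against 8.82% of all genes tested. DESeq2 called 17 lower and 1 higher, against 9.31% called lower of the genes to which it gave an adjusted p. Several of these genes respond to NF-κB and other factors as well. Cd44, the hyaluronan receptor, fell by 1.01 on the log2 scale (SE 0.13, edgeR adjusted p = 0.0280), and the membrane protease gene Mmp14 by 0.74 (SE 0.14, edgeR adjusted p = 0.0303). Plaur, the urokinase receptor, had 26.1 to 74.1 CPM in the control samples and 7.85 to 17.0 CPM in the treated samples (log2 fold change -1.97, SE 0.38, edgeR adjusted p = 0.0303).

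Cytokine genes were among the targets with the largest falls. The neutrophil chemokine Cxcl1 had 257, 6.22, 11.1 and 309 CPM in the control samples and 2.25 to 3.36 CPM in the treated samples (log2 fold change -5.72, SE 1.25, edgeR adjusted p = 0.0337), with the treated samples close together. Il6 had 174, 5.19, 7.49 and 150.1 CPM against 0.728 to 3.47 CPM, a fitted log2 fold change of -5.51 (SE 1.23, edgeR adjusted p = 0.0356). Il11 had 14.8, 4.36, 2.67 and 62.5 CPM against at most 2.11 CPM in a treated sample, and its log2 fold change of -3.86 (edgeR adjusted p = 0.0449) was -2.31 (edgeR adjusted p = 0.0919) without control-5. Control-1 and control-5 thus carried most of the control mean of Cxcl1 and Il6, as they did for Fos. The target that rose was Ccnd1, the cyclin of the G1 phase, with 110.0 to 144 CPM in the control samples and 164 to 194 CPM in the treated samples (log2 fold change 0.60, SE 0.11, edgeR adjusted p = 0.0300).

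**Figure D5:**
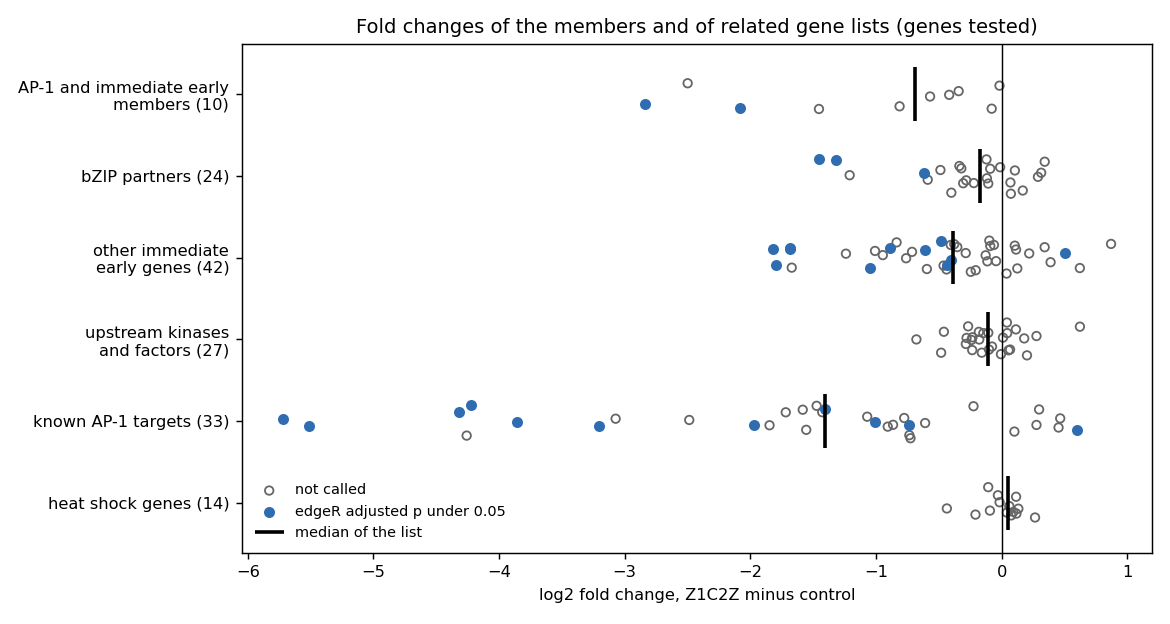
Log2 fold change, Z1C2Z minus control (x axis), of every tested gene in the members and in 5 related lists (rows, with the number tested), filled where the edgeR adjusted p was under 0.05, with a line at the median of each list. The medians lie at -0.69 for the members, -1.41 for the AP-1 targets and 0.05 for the heat shock genes.

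Heat shock genes, which encode chaperones induced by heat and other protein stress, made up a further list. Of 14 tested, edgeR called 0 in either direction, with 1 lower and 0 higher at an unadjusted p under 0.05. DESeq2 called 1 lower, Bag3 (log2 fold change -0.44, edgeR adjusted p = 0.0842). Of all genes tested, edgeR called 3.85% lower and 4.28% higher, and 15.2% were lower at that unadjusted p. DESeq2 called 9.31% lower of the genes to which it gave an adjusted p. Counts of 0 or 1 in 14 genes cannot be told apart from these shares. The median of the list was 0.05. After Bag3, the next by p were Hspa8, Hspa1b and Hspd1, with log2 fold changes of -0.21, 0.27 and 0.12.

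Markers of other cell types also differed between the groups. Of all genes tested, 3.85% were called lower and 4.28% called higher. Hair shaft genes moved most, with 15 of 16 called higher, a summed level of 661 to 3934 CPM in the control samples and 4794 to 18156 CPM in the treated samples. Skeletal muscle markers, of which 5 of 16 were called lower, summed to 4438 to 8556 against 3917 to 4313 CPM. Fibroblast markers summed to 61464 to 90472 against 47815 to 66448 CPM, with 3 of 9 called lower. Epidermal keratinocyte markers, with 1 of 12 called higher, summed to 13692 to 17017 against 15689.7 to 21249 CPM, so the genes that define skin were abundant in all samples.

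For neutrophil, macrophage and endothelial markers, edgeR called 0 of 9, 0 of 13 and 0 of 9 tested genes. At an unadjusted p under 0.05, 4, 5 and 5 were lower, where 15.2% of all genes tested were lower. The groups did not overlap in the lower direction for 0, 1 and 0 of them, against 8.82% of all genes tested. DESeq2 called 2 of 11, 1 of 13 and 2 of 9 lower, against 9.31% of the genes to which it gave an adjusted p. Their summed levels were 578 to 1513, 2909.6 to 3505 and 358 to 957 CPM in the control samples and 171 to 664, 1716 to 2939 and 321 to 589 CPM in the treated samples. S100a9, a defining neutrophil gene, had 317 to 874 CPM in the control samples and 88.8 to 360 CPM in the treated samples, with overlap. Of the 9 neutrophil genes tested, 8 had a log2 fold change under 0 and 1 over 0. No gene of these 7 marker lists was at 0 in all samples. The part of these shifts in the levels of Fosb, Nr4a1 and the other members was not tested.

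As a description of which genes varied most like a member within the groups, log2 CPM deviations from the group means were compared over the 8 samples, so that both values of a point come from 1 library. The genes with the highest Pearson r were Ift57 (0.993), Myl4 (0.981) and Abhd17b (0.980) for Fos, and Cemip2 (0.989), Nfkb1 (0.988) and Slc2a1 (0.984) for Fosl1. Of these, Cemip2 and Nfkb1 were called lower in the Z1C2Z group, with log2 fold changes of -1.15 and -0.57 (edgeR adjusted p = 0.0299 and 0.0470), and Ift57 had a log2 fold change of 0.04. The genes named for Fos and for Fosl1 were different ones, but each was picked as among the highest of many genes. With only 8 samples and the group means removed, such a pick can reach a high r among unrelated genes. Whether these r values exceed that was not tested, so no link to Fos or Fosl1 is drawn from them. Short lists picked in this way can also differ without a difference between Fos and Fosl1.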

How the data were processed

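The data were gene counts of RNA-seq from wound skin, 4 control and 4 Z1C2Z samples, grouped by their titles. What the authors deposited was 1 table of unnormalized counts per gene, with KEGG and GO annotation that was not used here. Per the labels, ribosomal RNA was removed and random-primed cDNA carried dUTP in its second strand, and RNA was extracted with Trizol, whereas the methods name the RNA Easy Fast kit. The aligner, counter, genome build, annotation and strand setting are not given in the sources used here, so reads shared by overlapping or antisense genes could not be separated. Totals of 28856790 to 38974888 counts per sample (median 36701603) leave counting error small for most members. Every pair of samples differed by more than sampling noise (smallest chi-square per degree of freedom 21.1).

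The tests were run with edgeR 4.0.16 in R 4.3.3 (filterByExpr, TMM, quasi-likelihood test, Benjamini-Hochberg adjustment, no covariates) and limma 3.58.1. SEs were derived from the F statistic, and log2 CPM used a prior count of 2. The study names no test for its counts. On counts simulated for 15147 genes, edgeR recovered 194 (97%) of the 200 genes given a log2 change of 2 and called 13 unchanged genes, and DESeq2 recovered 196 (98%) and called 49. The changed genes were drawn only from those above a minimum mean count. Each gene was simulated independently, without shifts that many genes of a sample share. These shares therefore check the fits and do not give the power in the real data. Alternatives were DESeq2 1.42.0, RLE factors, the sample number as a block, no filter, a minimum of 10 counts per sample, and each sample left out.

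The members, lists and rule for named genes were chosen with earlier results of these data known. The rule named all members. From each list of regulators or targets it named up to 8 called genes by smallest p, or up to 4 genes where fewer were called, from each cell type list up to 4 genes of highest CPM, and for Fos and Fosl1 the 3 genes most like them. Of the genes it selects, 1 is not reported here. Of 45 symbols written for the other immediate early genes, 43 were in the table, since Ccn1 and Ccn2 were also written under older names, and Egr4 was filtered out. Promoter windows came from RefSeq (GRCm38.p6) and exon lengths from GENCODE M21, both matched by symbol.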

Additional observations from a re-analysis of the deposited data

Results flagged for a closer look

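Each group of 4 samples was examined for a sample whose gap to its nearest neighbour exceeded the 95% critical value of Dixon's ratio of gap to range. This was done for 38 genes, 76 groups in all, where chance alone gives about 1 in 20 groups, and 2 groups exceeded it. For Fos, Z1C2Z-2 had 49.4 CPM while the nearest treated sample had 24.3 CPM, a gap of 0.896 of the range. Without Z1C2Z-2 the log2 fold change of Fos was -1.82 (edgeR adjusted p = 0.0923). For Egr3, control-1 had 112 CPM while the nearest control sample had 86.8 CPM, a gap of 0.939 of the range. Without control-1 the log2 fold change of Egr3 was 0.60. Each of these samples lay toward the other group, so leaving it out had to enlarge the difference.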

How the results depend on the processing

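Of the members, all but Egr1 kept their direction in 13 of 13 alternatives. Egr1 reversed in 4 of 13, with log2 fold changes from -0.16 to 0.17 when 1 sample was left out. Over the 13 alternatives the adjusted p ranged from 0.000757 to 0.116 for Fosb (called in 8), from 0.00665 to 0.132 for Nr4a1 (5), from 0.00290 to 0.145 for Fosl1 (5), from 0.0286 to 0.255 for Fos (1) and from 0.0371 to 0.253 for Fosl2 (1). DESeq2 called 1513 genes lower (345 of them with a log2 fold change under -1) and 1243 higher, against 583, 189 and 648 in edgeR. It called 5 members lower against 2, and 5 against 3 leucine zipper partners, 18 against 10 immediate early genes, 4 against 0 upstream factors, 17 against 10 targets and 1 against 0 heat shock genes. When 1 sample was left out, the counts ranged from 0 to 868 lower genes, 0 to 886 higher genes and 0 to 316 with a log2 fold change under -1, with 0 to 3 members, 0 to 3 partners, 0 to 10 immediate early genes, 0 to 1 upstream factors, 0 to 15 targets and 0 heat shock genes called lower. With control-5 or 1 of the treated samples 1, 2 and 4 left out, all of these counts were 0, and the cause was not tested. The sample numbers 1, 2 and 5 occur in both groups, but the deviations of same-numbered samples had correlations of -0.101, -0.0623 and 0.323 across genes, so the numbers were not taken to pair the samples. With the number as a replicate block, 253 genes were lower and 301 higher, and 1 member (Fosl1, adjusted p = 0.00290), 1 partner, 4 immediate early genes and 13 targets (10 without the block) were called lower. Control-3 and Z1C2Z-4 have no sample of the same number, so the group difference in that fit rested on samples 1, 2 and 5 of each group.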
